A study of Mus musculus with 15 samples.

Results

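Late neutrophil granule genes were followed across 4 genotypes of transplanted mouse bone marrow. The 10 genes are Camp, Ngp, Ltf, Lcn2, Cd177, Mmp8, Mmp9, S100a8, S100a9 and Retnlg. They were taken by name, as genes of the secondary and tertiary granules and of late neutrophils, and the rule is a list of names that uses no measured value. Each symbol matched 1 of the 45706 Ensembl identifiers of the count table. All 10 passed the filter on low counts, which kept 18983 genes.

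RNA was sequenced from lineage-negative femoral marrow of secondary recipients, that is, marrow depleted with magnetic beads of cells carrying T, B, natural killer, erythroid and myeloid surface antigens. The myeloid antigens were CD11b and Gr-1, so the depletion was aimed at the mature cells that carry the proteins studied here. The 15 libraries comprised 3 from WT, 4 from Puma-/- and 4 from G3 mTerc-/-Puma+/+ mice. The last 4 carry the label G3 mTerc-/-Puma-/-, which is called the double-mutant label from here on. Puma (gene symbol Bbc3) encodes a cell death activator that p53 induces, mTerc (Terc) encodes the RNA of telomerase, and G3 marks mice of generation 3 without telomerase. The genotype is that of the donor. LSK cells, a population of stem and progenitor cells, of CD45.2+ donors aged 8 to 12 weeks were passed through 2 successive transplantations into lethally irradiated CD45.1+ recipients (9.5 Gy), in all groups, WT included. Marrow was taken 16 weeks after the second transplantation. Both deletions are in the germline of the donors, and the recipients kept their own genes in all cells the transplant did not replace. The labels do not say that donor cells were sorted before RNA extraction, nor that each numbered library came from a recipient of its own, so p-values measure the spread between these libraries, which may in part be technical.

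Each library held between 102790519 and 158367059 counts on genes. Replicate 2 of the double-mutant label was not drawn in an expression heatmap of the study, although its statistics section states that nothing was left out. The tests below used the other 14 libraries, and values over all 15 are named as such, since this library had the highest sum of the 10 genes. That library stood apart from its group in genes of other cells, with Irf8, a transcription factor of monocytes and dendritic cells, at 31.4 normalized CPM against 866, 693 and 809 in the others, and an erythroid marker sum of 1768 against 468, 445 and 381. Bbc3 ran from 5.04 to 6.83 normalized CPM in Puma-/-, from 9.71 to 23.6 in WT, from 11.8 to 20.8 in G3 mTerc-/-Puma+/+ and from 13.5 to 17.1 under the double-mutant label, so its level went against that label and the label is quoted throughout. Terc ran from 0.0356 to 0.158 normalized CPM in WT and Puma-/- libraries and from 0 to 0.00985 in both telomerase-deficient groups. The 4 Puma-/- libraries had at most 0.0627 normalized CPM of each of 4 Y-linked genes examined, all WT and G3 mTerc-/-Puma+/+ libraries had at least 5.79, and libraries of the double-mutant label were mixed, so sex and Puma loss alone cannot be told apart. Xist, the RNA made from the inactive X chromosome of female cells, was at 418, 212 and 1.73 normalized CPM in WT, 531, 868, 466 and 576 in Puma-/-, 40.4, 0.177, 88.96 and 50.8 in G3 mTerc-/-Puma+/+ and 663, 89.4, 0.388 and 446 under the double-mutant label. So 2 of 3 WT libraries, 3 of 4 of G3 mTerc-/-Puma+/+ and 3 of 4 of the double-mutant label held Xist at 40.4 normalized CPM or more together with Y-linked counts.

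Neutrophils fill their granules in sequence as they mature. Promyelocytes make the primary granules with myeloperoxidase and elastase, myelocytes and metamyelocytes make the secondary granules with lactoferrin, cathelicidin and lipocalin, and the tertiary granules with gelatinase follow. The factor C/EBP epsilon is known as a main activator of the secondary granule genes. S100a8 and S100a9 encode a pair of abundant cytosolic proteins, not granule contents, and monocytes make them too, so the list holds late myeloid genes in a wider sense than its name. In bulk RNA, fewer cells of a type and less RNA per cell cannot be told apart.

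On GRCm38, Camp, Ngp and Ltf lay within 1195389 bases of chromosome 9, from 109847379 to 111042767. S100a8 and S100a9 lay within 26744 bases of chromosome 3, from 90668978 to 90695721. Mmp8 lay on chromosome 9 from 7558456 to 7568485, Lcn2 on chromosome 2 from 32384633 to 32388252, Mmp9 on chromosome 2 from 164940780 to 164955850, Cd177 on chromosome 7 from 24743983 to 24760311 and Retnlg on chromosome 16 from 48872621 to 48874496. All are annotated as protein-coding, and none shared exonic bases with another gene in GENCODE vM21.

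Because the 10 genes moved together between libraries, their promoters were searched for the letters of factors of the myeloid lineage. RefSeq windows of GRCm38.p6 were found for 9 of the 10 genes, Mmp9 being the other one. On both strands of the 250 bases before the start site, TTNNGNAA, a loose form of the C/EBP site, was present in 8 of 9 genes and in 36.8% of 32851 promoters of the same length. Its stricter form with a central CG, TTNCGNAA, which the first motif includes, was present in 0 of 9 genes and in 2.04% of all promoters. GAGGAA, the core bound by PU.1, was present in 5 of 9 genes and in 23.3% of all promoters, and AGATAA, a site of factors of other blood lineages, in 2 of 9 and in 9.99%. Camp was the gene with no match to any of the 4 motifs in that window, although Camp and Ngp were the pair of genes whose levels went together most closely over 15 libraries. The RefSeq start of Camp lies inside the GENCODE gene, so only 89 bases of its window lie before the first annotated exon, and the window of Lcn2 lies wholly inside its gene. A match to these letters is a description of the sequence and not a binding site.

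The stretches before the first annotated exon are shown for Camp and for 5 genes with a loose C/EBP match near their start, 5′ to 3′ on the strand of the gene, with the matches in capitals. They are Camp at chr9:109849618-109849706 (minus strand), Ngp at chr9:110419647-110419746 (plus), Ltf at chr9:111019171-111019270 (plus), Cd177 at chr7:24760312-24760411 (minus), Mmp8 at chr9:7558329-7558428 (plus) and S100a8 at chr3:90668878-90668977 (plus).
Camp: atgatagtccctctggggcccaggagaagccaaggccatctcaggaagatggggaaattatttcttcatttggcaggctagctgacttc
Ngp: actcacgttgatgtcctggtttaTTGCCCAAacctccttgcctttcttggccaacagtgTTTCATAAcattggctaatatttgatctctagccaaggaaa
Ltf: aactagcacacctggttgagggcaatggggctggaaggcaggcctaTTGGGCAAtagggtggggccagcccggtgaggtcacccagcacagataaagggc
Cd177: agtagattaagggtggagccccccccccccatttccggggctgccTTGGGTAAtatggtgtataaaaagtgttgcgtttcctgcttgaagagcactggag
Mmp8: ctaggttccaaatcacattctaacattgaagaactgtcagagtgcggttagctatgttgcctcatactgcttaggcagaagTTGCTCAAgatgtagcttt
S100a8: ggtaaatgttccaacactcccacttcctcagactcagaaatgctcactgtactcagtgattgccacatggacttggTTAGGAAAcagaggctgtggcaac

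The mean of each of the 10 genes was highest under the double-mutant label, with 14 and with 15 libraries. By edgeR, whose quasi-likelihood test is the main test here, none of the 10 was called at an adjusted p under 0.05 in any comparison, and by DESeq2, another count test, up to 5 were, as given beside each result. The libraries of a genotype differed strongly among themselves: 3 of the 4 libraries of the double-mutant label were high for most of the genes and the fourth, replicate 1, was near the level of the other genotypes. Puma-/- replicate 2 was the lowest of all 15 libraries for each of the 10 genes. The genes together held between 0.0390% of the counts, in Puma-/- replicate 2, and 0.514%, in replicate 2 of the double-mutant label.

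**Figure D1:**
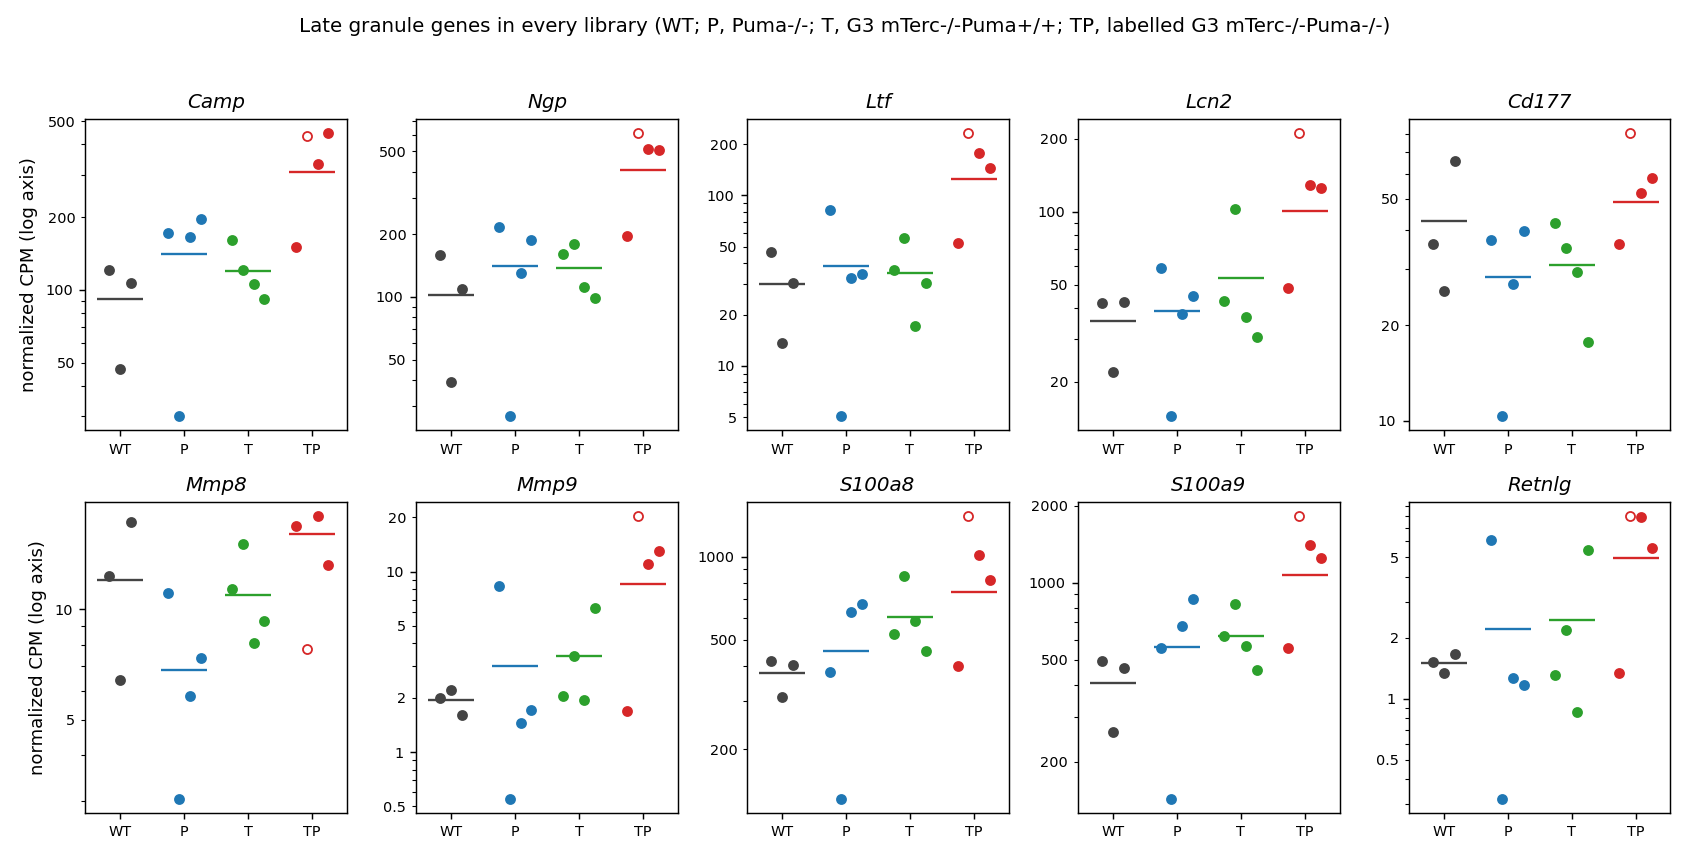
Normalized CPM (log axis) of each of the 10 genes in every library, by genotype (P, Puma-/-; T, G3 mTerc-/-Puma+/+; TP, the double-mutant label). Bars are means over the 14 tested libraries and the open circle is the library left out of the tests. Puma-/- replicate 2 is the lowest point in all 10 panels.

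Levels are given as normalized CPM, counts scaled to a common library total with TMM factors, in the order of the replicate numbers. Camp encodes cathelicidin, the precursor of an antimicrobial peptide of the secondary granules. Camp was at 121, 47.1 and 107 in WT, 171, 29.99, 165 and 197 in Puma-/-, 160.1, 121, 106 and 91.2 in G3 mTerc-/-Puma+/+ and 150.1, 435, 332 and 444 under the double-mutant label. The latter lay above every WT library in 4 of 4 cases, but replicate 1 was below 3 of the Puma-/- libraries. The means were 91.7 ± 39.3 in the 3 WT libraries (± SD throughout), 141 ± 75.1 over the 4 of Puma-/-, 119 ± 29.6 over the 4 of G3 mTerc-/-Puma+/+ and 309 ± 148 in the 3 tested libraries of the double-mutant label. Camp differed from WT by 1.75 on the log2 scale (SE 0.565, adjusted p = 0.579 by edgeR's quasi-likelihood method, with the Benjamini-Hochberg adjustment taken over all tested genes).

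Ngp, the neutrophilic granule protein, is a cystatin-like protein of the same granules. Its levels were 158, 39.05 and 109 in WT, 217, 26.8, 131 and 187 in Puma-/-, 162, 179, 111 and 98.7 in G3 mTerc-/-Puma+/+ and 196, 609.6, 512 and 506 under the double-mutant label. All 4 of the latter were above every WT and every G3 mTerc-/-Puma+/+ library, and 3 of them were more than 2-fold above all other libraries. The group means were 102 ± 59.9 in the 3 WT libraries (± SD), 140.5 ± 83.8 over the 4 of Puma-/-, 138 ± 38.7 over the 4 of G3 mTerc-/-Puma+/+ and 405 ± 181 under the double-mutant label (n = 3). The log2 fold change of Ngp was 1.99 (SE 0.6401) against WT and 1.56 (SE 0.576) against G3 mTerc-/-Puma+/+, with adjusted p of 0.579 and 0.603 from the same edgeR test. The exact two-sided permutation test of Ngp between the telomerase-deficient groups gave p = 0.0286, the smallest that 3 against 4 libraries allow, and this p is not adjusted for the 10 genes.

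Ltf encodes lactoferrin, which binds iron. Its counts came to 46.5, 13.7 and 30.6 normalized CPM in WT, 81.9, 5.07, 32.6 and 34.5 in Puma-/-, 36.4, 55.9, 17.1 and 30.7 in G3 mTerc-/-Puma+/+ and 52.8, 231, 176 and 144 under the double-mutant label. The highest library was 45.5 times the lowest, the widest span of the 10 genes. Libraries of the double-mutant label did not overlap with WT, but replicate 1 lay below Puma-/- replicate 1. The mean was 30.2 ± 16.4 in WT (SD, n = 3) and 124 ± 64.04 under the double-mutant label (n = 3), a log2 fold change of 2.04 (SE 0.757) with an adjusted p of 0.735 from edgeR's test.

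Lcn2 encodes lipocalin 2, which captures bacterial iron carriers. Lcn2 stood at 41.97, 21.8 and 42.6 in WT, 58.7, 14.4, 38.1 and 44.9 in Puma-/-, 43.01, 103, 36.8 and 30.6 in G3 mTerc-/-Puma+/+ and 48.6, 210.2, 129 and 125 under the double-mutant label. One G3 mTerc-/-Puma+/+ library, replicate 2, reached 103, while WT did not overlap with the double-mutant label. The means of these 2 groups were 35.5 ± 11.8 (SD, n = 3) and 101 ± 45.4 (SD, n = 3). The log2 fold change was 1.51 against WT (SE 0.541), 1.37 against Puma-/- (SE 0.493) and 0.92 against G3 mTerc-/-Puma+/+ (SE 0.491). The adjusted p of these 3 comparisons from edgeR's test were 0.709, 0.424 and 0.836.

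Cd177 encodes a glycoprotein that is anchored in the membrane of secondary granules and of the cell surface, and Pecam1 encodes its known partner on endothelial cells. Cd177 was at 35.9, 25.6 and 65.8 in WT, 37.1, 10.3, 26.9 and 39.4 in Puma-/-, 41.9, 34.9, 29.4 and 17.7 in G3 mTerc-/-Puma+/+ and 36.03, 80.3, 51.9 and 58.03 under the double-mutant label. WT replicate 3 was higher than 3 of the 4 libraries of the double-mutant label, so these groups overlapped. The means were 42.4 ± 20.9 in WT (SD, n = 3) and 48.7 ± 11.4 under the double-mutant label (n = 3), with a log2 fold change of 0.20 (SE 0.445). That is the smallest difference of the 10 genes from WT with 14 libraries, and its adjusted p from edgeR's test was 1. With 15 libraries Cd177 differed by 0.41, and Mmp8 had the smallest difference, 0.22.

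The metalloproteinases of the granules are Mmp8, the neutrophil collagenase of the secondary granules, and Mmp9, the gelatinase of the tertiary granules. Mmp8 was at 12.3, 6.41 and 17.3 normalized CPM in WT, 11.1, 3.05, 5.79 and 7.38 in Puma-/-, 11.3, 15.1, 8.09 and 9.27 in G3 mTerc-/-Puma+/+ and 16.9, 7.82, 17.9 and 13.2 under the double-mutant label. Unlike the other genes, Mmp8 was low in replicate 2 of the double-mutant label and high in replicate 1. The 3 tested libraries of that label exceeded every Puma-/- library, with means of 16.01 ± 2.47 (SD, n = 3) and 6.82 ± 3.34 (SD, n = 4), while with replicate 2 the groups overlapped. Relative to Puma-/-, Mmp8 differed by 1.23 on the log2 scale (SE 0.379, adjusted p = 0.301, edgeR). DESeq2 called Mmp8 in this comparison with an adjusted p of 0.0417, 1 of 10 genes beside 1.51% of all genes by that tool, and with all 15 libraries it called none of the 10 there, beside 1.35%.

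Mmp9 was at 1.995, 2.21 and 1.59 in WT, 8.29, 0.551, 1.45 and 1.71 in Puma-/-, 2.04, 3.41, 1.95 and 6.28 in G3 mTerc-/-Puma+/+ and 1.69, 20.3, 11.1 and 12.98 under the double-mutant label. Puma-/- replicate 1 and G3 mTerc-/-Puma+/+ replicate 4 were high beside their groups, and replicate 1 of the double-mutant label was as low as WT. The means were 1.93 ± 0.311 in the 3 WT libraries (± SD), 3.002 ± 3.56 over the 4 of Puma-/-, 3.42 ± 2.02 over the 4 of G3 mTerc-/-Puma+/+ and 8.58 ± 6.04 under the double-mutant label (n = 3). Against WT the log2 fold change of Mmp9 was the largest of the 10 genes, 2.15 (SE 0.877, adjusted p = 0.819, edgeR), although the groups overlapped.

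S100a8 and S100a9 encode the subunits of calprotectin, which binds calcium, zinc and manganese and is sensed by the receptors encoded by Tlr4 and Ager. S100a8 was at 417, 310.3 and 405 in WT, 381, 132, 629 and 672 in Puma-/-, 522, 853, 586 and 453 in G3 mTerc-/-Puma+/+ and 402, 1407, 1015 and 824 under the double-mutant label. Every G3 mTerc-/-Puma+/+ library exceeded every WT library, whereas replicate 1 of the double-mutant label lay below 2 of the WT libraries. The means were 378 ± 58.5 in the 3 WT libraries (± SD), 454 ± 249.9 over the 4 of Puma-/-, 604 ± 175 over the 4 of G3 mTerc-/-Puma+/+ and 747 ± 314 under the double-mutant label (n = 3). The log2 fold change against WT was 0.68 (SE 0.443, adjusted p = 0.998) in G3 mTerc-/-Puma+/+ and 0.98 (SE 0.471, adjusted p = 0.929) under the double-mutant label, by edgeR's test.

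S100a9 was at 496, 261 and 465 in WT, 557, 144, 679 and 860.5 in Puma-/-, 621, 825, 568 and 455 in G3 mTerc-/-Puma+/+ and 557, 1821, 1404 and 1251 under the double-mutant label. All 4 of the latter were above WT, replicate 1 by the smallest margin and within the range of the Puma-/- and G3 mTerc-/-Puma+/+ libraries. The mean was 408 ± 128 in WT (SD, n = 3) and 1070 ± 451 under the double-mutant label (n = 3), or 1.39 on the log2 scale (SE 0.504, adjusted p = 0.72, edgeR). With all 15 libraries it was 1.63 (SE 0.4998, adjusted p = 0.397, edgeR), and DESeq2 on those 15 libraries gave an adjusted p of 0.0383, the one call among the 10 genes against WT in that fit, beside 1.15% of all genes by that tool. With 14 libraries DESeq2 called 0 of 10 against WT, beside 0.490%. The ratio of S100a9 to S100a8 stayed between 0.842 and 1.52 in all 15 libraries.

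Retnlg encodes a resistin-like protein that neutrophils secrete. It was the gene with the fewest counts, down to 36 in 1 library, with 1.52, 1.34 and 1.67 normalized CPM in WT, 6.08, 0.3202, 1.27 and 1.17 in Puma-/-, 1.31, 2.18, 0.862 and 5.46 in G3 mTerc-/-Puma+/+ and 1.33, 8.01, 7.92 and 5.59 under the double-mutant label. The high libraries were the same as for Mmp9, Puma-/- replicate 1 and G3 mTerc-/-Puma+/+ replicate 4 included, and replicate 1 of the double-mutant label was again at the level of WT. The means were 1.51 ± 0.163 in WT (SD, n = 3) and 4.95 ± 3.34 under the double-mutant label (n = 3). For Retnlg this came to 1.71 on the log2 scale (SE 0.911, adjusted p = 0.973, edgeR).

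Per kilobase of exon, where genes can be compared with each other, S100a9 was the most abundant, with a mean of 3612 TPM (counts per exon length, scaled to a common total) over the 15 libraries, followed by S100a8 at 2224, Camp at 611 and Ngp at 459. Lcn2 came to 64.7, Ltf to 49.4, Cd177 to 35.8, Retnlg to 13.4, Mmp8 to 11.6 and Mmp9 to 3.79 on this scale. The calprotectin pair and the antimicrobial proteins of the secondary granules thus stood above the proteinases.

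The question of the design is how telomerase loss, Puma loss and their combination relate to these genes. Between Puma-/- and WT, 8 of 10 genes had a log2 fold change above 0, with a median of 0.40 and values from -0.81 for Mmp8 to 0.64 for Mmp9. The median was 0.00 by limma-voom, and -0.24 without Puma-/- replicate 1, where Mmp9 (-0.65), Retnlg (-0.72), Ltf (-0.34) and Lcn2 (-0.14) turned below 0. No gene was called by edgeR, where 0.0790% of all tested genes were, and the count at an unadjusted p under 0.05 was 0 by edgeR and limma-voom and 1 by DESeq2. Of all 18983 genes, 1095 were higher and 831 lower at that p by edgeR. Between G3 mTerc-/-Puma+/+ and WT, 8 of 10 were above 0, with a median of 0.51 and values from -0.45 for Cd177 to 0.82 for Mmp9. That median was 0.20 without WT replicate 2 and 0.69 without WT replicate 1. Again 0 of 10 were called, beside 0.0369% of all genes, and 0 of 10 had an unadjusted p under 0.05 by edgeR, limma-voom or DESeq2. At that p edgeR had 301 of all genes higher and 432 lower. In the direct comparison of G3 mTerc-/-Puma+/+ with Puma-/-, the median was 0.14, with values from -0.24 for Camp to 0.68 for Mmp8. There 0 of 10 genes were called beside 0.801% of all genes, the largest share of any comparison by edgeR with 14 libraries. An unadjusted p under 0.05 was found for 0 of 10 by edgeR and limma-voom and for 1 by DESeq2. Of all 18983 genes, edgeR had 1554 higher and 1701 lower at that p. Since Puma-/- replicate 2 was low for every gene, leaving it out of the 15 libraries moved the median against WT to 0.76 and that of G3 mTerc-/-Puma+/+ against Puma-/- to -0.20.

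The double-mutant label gave the largest differences. Because the 10 genes moved together between libraries, counts out of 10 are not counts of independent observations, here and in the other comparisons. Against WT all 10 log2 fold changes were above 0, with a median of 1.61 and values from 0.20 to 2.15, beside 9497 of 18983 tested genes above 0 and a median of 0.00 over all of them. By edgeR 0 of 10 were called, beside 0.0632% of all genes, or 0.0418% with 15 libraries. At an unadjusted p under 0.05, 6 of 10 were higher by edgeR, 7 by DESeq2 and 5 by limma-voom, where 705 of the 18983 genes were higher by edgeR. With 15 libraries 8 of 10 were, beside 1347 of 19146 genes. Every library of that label was above every WT library for Camp, Ngp, Ltf, Lcn2 and S100a9, 5 of 10 genes, where 5.32% of all tested genes showed this order with 14 libraries, and the same 5 did with 15 libraries, where 4.0% of all genes did. Their exact two-sided permutation p was 0.1 with 14 libraries, the smallest that 3 against 3 allow, and 0.0571 with 15. S100a8 was the single gene of the 10 to show that order for G3 mTerc-/-Puma+/+ against WT, where 1.96% of all genes did.

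Against Puma-/-, all 10 values were above 0 again, with a median of 1.195, from 0.72 for S100a8 to 1.69 for Ltf. By edgeR 0 of 10 were called beside 0.306% of all genes, or 0.308% with 15 libraries, and 5 of 10, Camp, Ngp, Ltf, Lcn2 and Mmp8, had an unadjusted p under 0.05, as 5 did by limma-voom and 6 by DESeq2. By edgeR 667 of 18983 genes were higher at that p. With 15 libraries 9 of 10 were, all but Retnlg, beside 799 of 19146 genes. Mmp8 alone of the 10 was higher in every library, with 14 libraries, as 4.0% of all genes were. Against G3 mTerc-/-Puma+/+, which has the other Puma label, the 10 values had a median of 0.97, from 0.31 for S100a8 to 1.83 for Ltf. Without replicate 3 of the double-mutant label the median was 0.65, with S100a8 at 0.0225. It was 1.57 with the 15 libraries but replicate 1 of that label. Here 0 of 10 were called by edgeR beside 0.0738% of all genes, or 0.0313% with 15 libraries, and 0 of 10 by DESeq2 beside 0.908%, or 1.66% with 15 libraries. By edgeR 3 of 10, Camp, Ngp and Ltf, had an unadjusted p under 0.05, as 3 did by DESeq2 and by limma-voom. By edgeR 830 of 18983 genes were higher at that p. With 15 libraries 7 of 10 were, Lcn2, Cd177, Mmp9 and S100a9 being added, beside 1501 of 19146 genes. Of the 10, Ngp was the one gene higher in every library, where 3.16% of all genes were. Some Y-linked genes differed in each of the 3 comparisons of the double-mutant label. By edgeR, 2 of 4, Eif2s3y and Kdm5d, fell against G3 mTerc-/-Puma+/+ (-3.08 and -2.94, adjusted p = 0.00636 for both) and against WT (-2.85 and -2.43, adjusted p = 0.00693 and 0.0177), Eif2s3y alone with 15 libraries, and 4 of 4 were called higher than in Puma-/-, with 14 and with 15 libraries. The part of sex in the differences of the 10 genes was not tested. The 3 comparisons share the libraries of the double-mutant label and are not independent of each other.

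**Figure D2:**
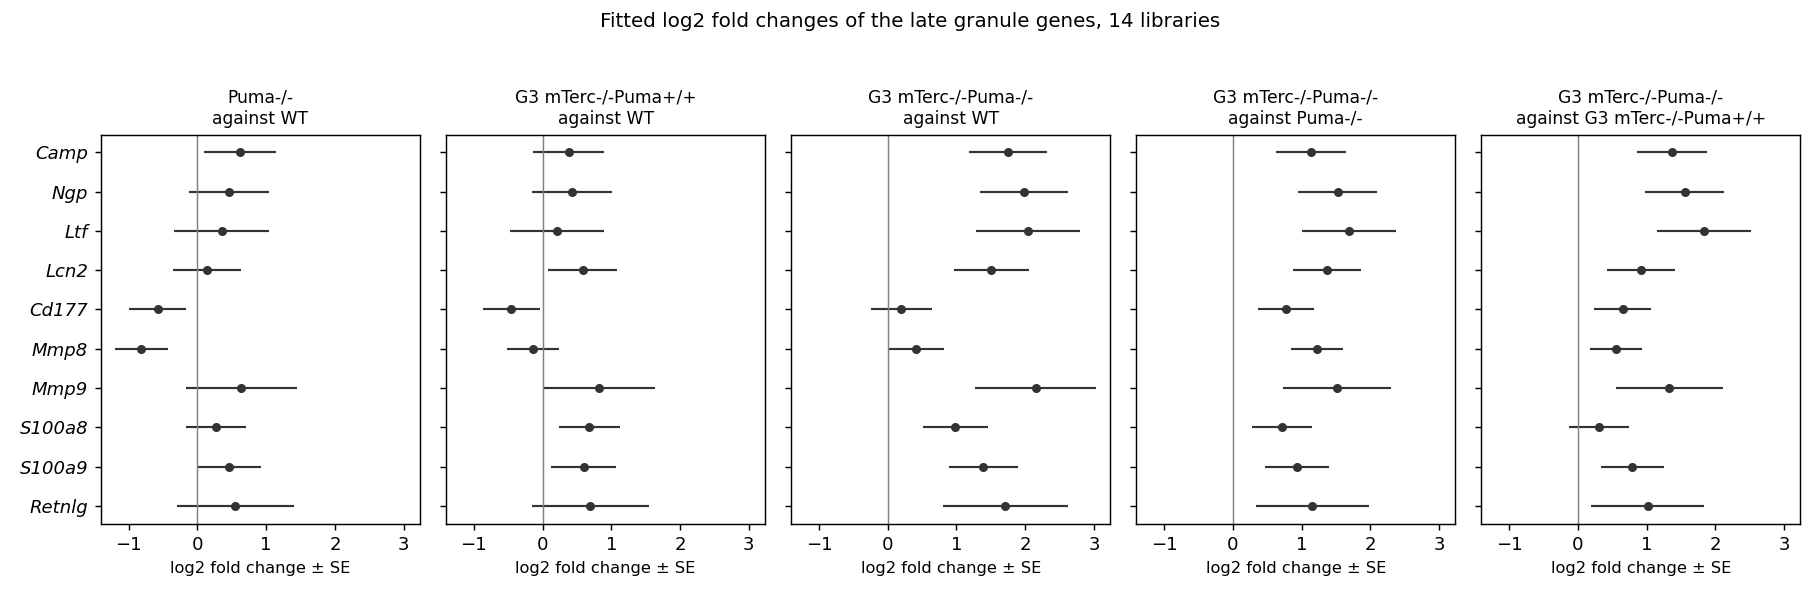
Fitted log2 fold change (point) and standard error (line) of each of the 10 genes in 5 comparisons, from edgeR's fit of 14 libraries. All 10 points lie above 0 in the 3 panels on the right, from 0.20 for Cd177 to 2.15 for Mmp9 in the middle panel, and none passed an adjusted p of 0.05.

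The interaction of mTerc and Puma, which asks whether the difference between both Puma labels is another one without telomerase, was above 0 for 10 of 10 genes, with a median of 0.77, from 0.04 for S100a8 to 1.48 for Ltf. Its median was 0.47 without Puma-/- replicate 2 and 1.40 without Puma-/- replicate 1. None of the 10 genes was called by edgeR, beside 0.0527% of all genes, or by DESeq2, beside 0.338%, or 0.215% with 15 libraries. Mmp8 alone had an unadjusted p under 0.05 by edgeR (0.0237, adjusted p = 0.92, log2 value 1.36), where DESeq2 gave 1 such gene and limma-voom 2. Over all 18983 genes 455 were above 0 and 481 below 0 at that p by edgeR. With 15 libraries that gene was Cd177 (0.0267, adjusted p = 1, edgeR), while Mmp8 had 0.0557. A test of any difference among the 4 genotypes called 0 of 10 genes beside 0.448% of all genes, and 5 of 10, Camp, Ngp, Ltf, Lcn2 and Mmp8, had an unadjusted p under 0.05 by edgeR, 6 by DESeq2 and 2 by limma-voom, where 2169 of 18983 genes had by edgeR. With all 15 libraries edgeR still called 0 of 10 there, beside 0.251% of all genes, with 6 of 10 and 2007 of 19146 at that p, while DESeq2 called 5, namely Camp, Ngp, Ltf, Lcn2 and S100a9, among 710 genes in all, or 3.79% of all genes by that tool. With 14 libraries DESeq2 called 0 of 10 in this test and 4.41% of all genes.

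Replicate 1 of the double-mutant label was the low library of its group for most of the genes. With all 15 libraries the median of the 10 genes against WT was 1.87, and without that library it was 2.13. Still 0 of 10 were called without it, with a lowest adjusted p of 0.164 by edgeR. In the fit of 14 libraries, where the median was 1.61, leaving out replicate 3 gave 1.24. The mitochondrial share of counts, 4.96% to 9.92% over all libraries, was 9.33%, 7.28% and 4.96% in the high replicates 2, 3 and 4 and 6.65% in replicate 1. Of the Y-linked genes, Ddx3y was at 2.88, 38.9, 46.03 and 4.27 and Uty at 0.806, 12.4, 12.98 and 1.35 in replicates 1 to 4. Eif2s3y was at 3.14, 6.53, 6.72 and 7.67 and Kdm5d at 2.55, 24.8, 4.02 and 4.32, so all 4 genes were lowest in replicate 1 and the order of the others differed between them. The part of sex in the levels was not tested.

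The 10 genes moved together from library to library. Over the 15 libraries, Pearson's r of log2 CPM between 2 genes ran from 0.412 to 0.979 over the 45 pairs, with a median of 0.803, as a description of libraries some of which share a genotype. With genotype means removed, over 14 libraries, the pairs ran from 0.381 to 0.971 with a median of 0.794, so the genes also went together among libraries of 1 genotype. The closest pairs over 15 libraries were Camp with Ngp (0.979), Ngp with Ltf (0.968), S100a8 with S100a9 (0.967) and Mmp9 with Retnlg (0.962). The lowest values were those of Mmp8 over 15 libraries, and those of Mmp9 and Retnlg with genotype means removed, down to 0.381 for Cd177 with Mmp9. Replicates 2, 3 and 4 of the double-mutant label were the 3 highest libraries for 6 of 10 genes.

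**Figure D3:**
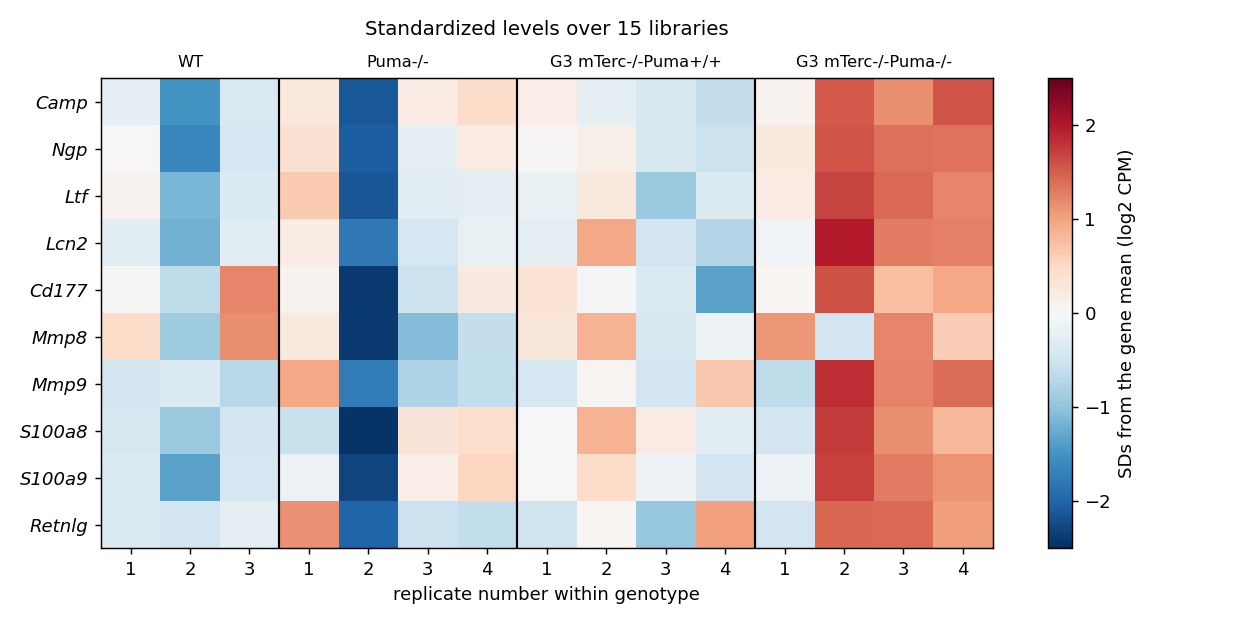
Each row is a gene and each column a library, coloured by the SDs of its log2 CPM from the mean of that gene over 15 libraries. Puma-/- replicate 2 is the low column in all 10 rows, and the high columns are replicates 2 to 4 of the double-mutant label, except for Mmp8 in replicate 2.

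**Figure D4:**
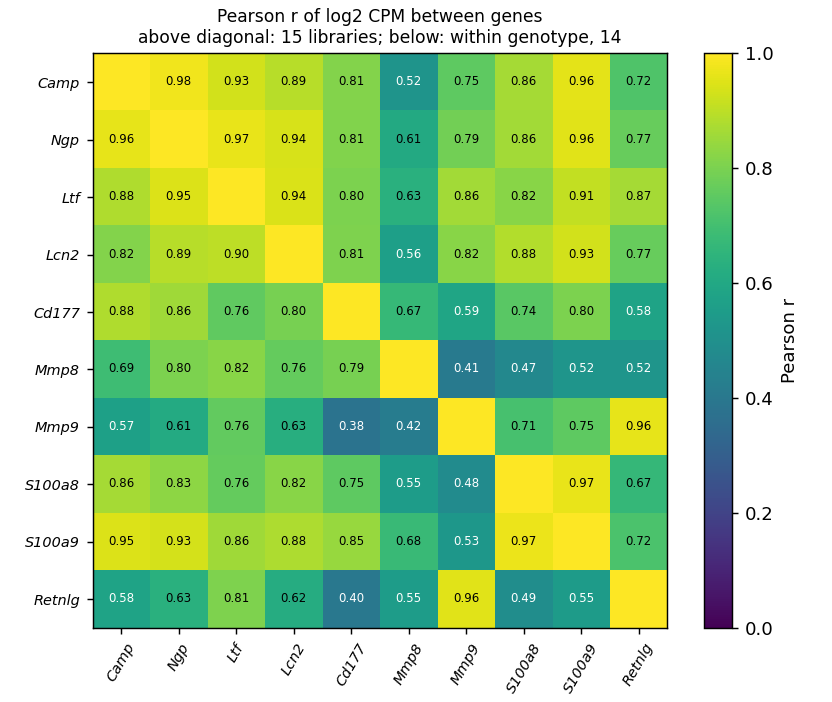
Pearson's r of log2 CPM between the genes over 15 libraries (above the diagonal) and over 14 libraries with genotype means removed (below). The values above the diagonal run from 0.41 for Mmp8 with Mmp9 to 0.98 for Camp with Ngp.

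Outside the list, the genes closest to its mean standardized level were sought among 13040 genes with a mean of at least 1 CPM. They were Chil1 (r = 0.983 over 15 libraries), a chitinase-like protein, Itgb2l (0.951), an integrin subunit, Orm1 (0.925), an acute phase protein, Gm45837 (0.901) and Abhd5 (0.875), a lipase cofactor. Chil1 was at 2.19, 1.11 and 2.29 normalized CPM in WT, 3.72, 0.391, 2.25 and 2.603 in Puma-/-, 1.98, 3.396, 1.57 and 1.88 in G3 mTerc-/-Puma+/+ and 1.93, 11.5, 5.83 and 6.17 under the double-mutant label. These r are descriptions over libraries and carry no test.

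Genes of the earlier granules did not show the same order of libraries, apart from its 2 ends. Among all 15 libraries, Puma-/- replicate 2 had the lowest and replicate 2 of the double-mutant label the highest sum of both lists. The 9 primary granule genes summed to 13800 to 29110 normalized CPM per library, with means of 18950 ± 2947 in the 3 WT libraries (± SD), 19790 ± 4185 over the 4 of Puma-/-, 21590 ± 4431 over the 4 of G3 mTerc-/-Puma+/+ and 18620 ± 2943 under the double-mutant label (n = 3). The 10 late genes summed to 1103 ± 327, 1413 ± 730, 1614 ± 420 and 2835 ± 1196 in the same groups. Between the double-mutant label and G3 mTerc-/-Puma+/+ the median log2 fold change was -0.18 for the 9 primary granule genes, with 0 of 9 above 0, and 0.97 for the 10 late genes. With 15 libraries these medians were -0.0039, with 4 of 9 above 0, and 1.24. None of the 9 passed edgeR's test. Myeloperoxidase (Mpo) was at 7669, 13020, 8096 and 9199 and elastase (Elane) at 2680, 5278, 3517 and 3931 under the double-mutant label, replicate 2 having the highest level of each among all 15 libraries. The late genes amounted to 2.65% of the counts of the primary granule genes in Puma-/- replicate 2 and to 19.2% in replicate 3 of the double-mutant label.

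**Figure D5:**
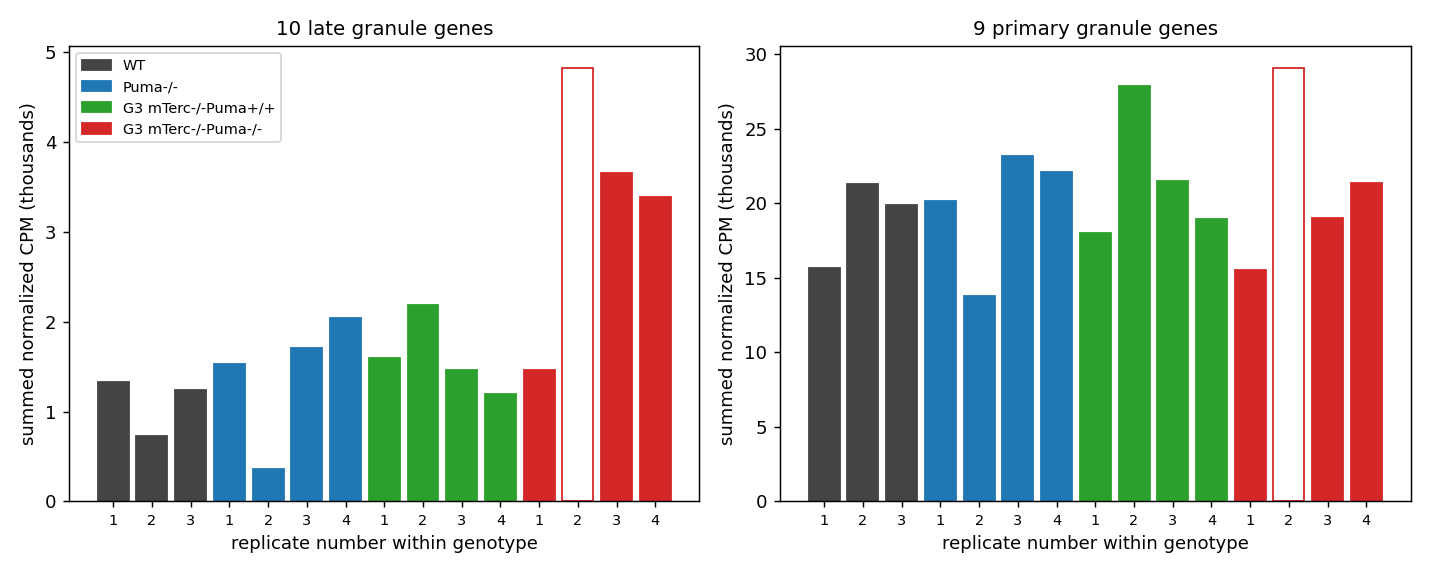
Summed normalized CPM per library of the 10 late granule genes (left) and of 9 primary granule genes (right), with the open bar for the library left out of the tests. The late sum runs from 366 to 4831 CPM and the primary sum from 13800 to 29110 CPM, and of the 3 highest libraries in the left panel only replicate 2 of the double-mutant label is among the 3 highest in the right panel.

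Of 24 other genes of secondary granules and late neutrophils, 21 were tested, and 0 passed edgeR's test in each of the 3 comparisons of the double-mutant label. Their median log2 fold change was 0.21 against WT, 0.35 against Puma-/- and 0.30 against G3 mTerc-/-Puma+/+. At an unadjusted p under 0.05, 3, 4 and 4 of the 21 were higher in this order, and with 15 libraries 6, 5 and 3. The largest single value was 2.48, against Puma-/-. The most abundant were lysozyme (Lyz2), at 1951 ± 790.2 normalized CPM in WT (SD, n = 3) and 2080 ± 544 under the double-mutant label (n = 3), or 1668 ± 936 with its replicate 2 (n = 4), and haptoglobin (Hp), at 501 ± 41.3 (n = 3) and 601 ± 63.01 (n = 3). Of 16 genes of segmented neutrophils 0 were called in these comparisons, with medians of 0.13, 0.16 and 0.21 in the same order. Of these 16, 3, 3 and 5 were higher at an unadjusted p under 0.05, and with 15 libraries 4, 3 and 4. The largest single value was 1.94, against WT. The adhesion ligand Selplg was at 699 ± 66.01 in WT and 680.1 ± 69.96 under the double-mutant label (SD, n = 3 each). In replicate 2 of that label, which these means leave out, Selplg was at 184 and Hp at 796.

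Among 9 transcription factors of granulopoiesis, none was called in the 3 comparisons, with medians of -0.01, 0.04 and -0.03, or -0.17, 0.08 and -0.16 with 15 libraries. Irf8 was at 809.7 ± 39.99 in WT and 789 ± 88.1 under the double-mutant label, and Spi1, which encodes PU.1, at 294 ± 13.2 and 279.9 ± 26.1 (SD, n = 3 each). In replicate 2 of that label, which these means leave out, Irf8 was at 31.4 and Spi1 at 181. Cebpe, which encodes C/EBP epsilon and was singled out after its values were seen, was at 46.2, 68.6 and 48.4 in WT, 74.7, 45.4, 79 and 89.9 in Puma-/-, 57.3, 69.3, 78.6 and 62.1 in G3 mTerc-/-Puma+/+ and 48.4, 129, 63.8 and 83.1 under the double-mutant label. It was highest in replicate 2 of the latter, while replicates 1 and 3 lay within the range of WT and replicate 4 lay below Puma-/- replicate 4.

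Of 9 genes of receptors, partners and inhibitors of the proteins, 1 was called under the double-mutant label, against Puma-/-: Timp3, an inhibitor of metalloproteinases, fell, with -1.93 on the log2 scale (SE 0.283, adjusted p = 0.00788, edgeR). Timp3 was at 6.604, 7.53, 9.71 and 6.47 in Puma-/-, above all other libraries, 4.49, 4.36 and 1.92 in WT, 2.3, 3.33, 2.55 and 3.45 in G3 mTerc-/-Puma+/+ and 2.25, 3.19, 1.68 and 2.02 under the double-mutant label. It fell in G3 mTerc-/-Puma+/+ against Puma-/- too, by edgeR's test (-1.38, SE 0.251, adjusted p = 0.035), as did Slc22a17, which encodes the lipocalin 2 receptor (-0.69, SE 0.145, adjusted p = 0.0491). With 15 libraries both calls in that comparison were lost (adjusted p of 0.0792 and 0.21, edgeR), while Timp3 under the double-mutant label kept an adjusted p of 0.0144.

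Markers of the depleted cells were examined beside the late genes. Ly6g, which encodes a part of the Gr-1 antigen and was singled out after its values were seen, was at 0.642, 0.344 and 0.461 normalized CPM in WT, 1.23, 0.0178, 0.314 and 0.2002 in Puma-/-, 0.331, 0.532, 0.293 and 0.897 in G3 mTerc-/-Puma+/+ and 0.472, 1.98, 2.15 and 1.67 under the double-mutant label. Ly6g was thus highest in the 3 libraries with the highest late granule sums and lowest in Puma-/- replicate 2, and Puma-/- replicate 1 came next after those 3. Itgam, which encodes CD11b, ran from 80.5 to 172 over all libraries, highest in replicate 1 of the double-mutant label. Of its 5024 exonic bases, 3450 are shared with another gene on the same strand, and the effect of this on its counts was not tested. The 8 genes of the depleted surface proteins had 0 calls in these comparisons and a median log2 fold change of 0.55 against WT, 0.43 against Puma-/- and 0.32 against G3 mTerc-/-Puma+/+, with summed levels of 1218 to 2068 over all libraries. The part of cells left by the depletion in the differences was not tested.

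Of other cells, 8 monocyte markers summed to 2776 to 3946 normalized CPM in WT and 2962 to 3645 in the tested libraries of the double-mutant label, with 0 called against WT and a median of -0.09. Replicate 2 of that label had 1104, and with 15 libraries the median was -0.46. The 10 erythroid markers had 0 called and a median of 0.66 against WT, or 1.71 with 15 libraries, where 9 of 10 had an unadjusted p under 0.05. The 8 macrophage markers, 7 of them tested, had 0 called and a median of 0.59, or 0.96 with 15 libraries. The 8 stem and progenitor markers had 0 called and a median of -0.11, or -0.07 with 15 libraries. The 8 T and NK cell markers had 0 called and a median of 0.66 with 8 of 8 above 0, or 0.65 with 15 libraries. The 6 basophil and mast cell markers had 0 called and a median of -0.42 with 0 of 6 above 0, or -0.56 with 15 libraries. Compared with Puma-/-, the erythroid markers had a median of 0.69, or 1.67 with 15 libraries. Of these, 5 of 10 were higher at an unadjusted p under 0.05 by edgeR, or 9 of 10 with 15 libraries. The basophil and mast cell markers had a median of -0.80 there, with 4 of 6 lower at that p. Compared with G3 mTerc-/-Puma+/+, the macrophage markers had a median of 0.91 with 7 of 7 above 0.

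Calls among the cell type markers between genotypes, by edgeR with 14 libraries, were of B cell, megakaryocyte and eosinophil genes. Against G3 mTerc-/-Puma+/+ the double-mutant label had 2 of 8 B cell markers called higher, and 1 of 8 with 15 libraries. Among the 2 was Igll1 (2.95, adjusted p = 0.0393), a gene of the B lineage, which was not called with 15 libraries. The 8 had a median log2 fold change of 2.11 there, and 7 of 8 were higher at an unadjusted p under 0.05, with 14 and with 15 libraries. Against Puma-/- it had higher Igll1 (2.46, adjusted p = 0.0363) and lower Il5ra, the interleukin 5 receptor of eosinophils (-1.78, adjusted p = 0.00594), neither of them called with 15 libraries. In that comparison 5 of 6 megakaryocyte genes were lower, Pf4, Gp1bb, Ppbp, Vwf and Gp9, from -2.22 for Pf4 to -1.61 for Gp9, and all but Gp9 were called with 15 libraries too, where Itga2b was added. Of the 2087 exonic bases of Gp1bb, 1938 are shared with other genes on the same strand. G3 mTerc-/-Puma+/+ had 2 of 8 B cell markers called lower than Puma-/-, with 14 and with 15 libraries. Among the genes of these lists it had lower Ms4a1 (-2.61), Pf4 (-1.63), Gp1bb (-1.52), Vwf (-1.39), Gp9 (-1.29) and Il5ra (-1.11) than Puma-/-, of which Ms4a1, Pf4 and Vwf were called with 15 libraries. Against WT, the double-mutant label had 0 of 8 B cell markers called, with a median of 1.43 and 5 of 8 higher at an unadjusted p under 0.05, and with 15 libraries a median of 1.46 and again 5 of 8. The 6 megakaryocyte markers had a median of -0.81 in that comparison, 0 called and 5 of 6 lower at that p, and with 15 libraries a median of -0.71 and 4 of 6. The part of these cells in the late granule levels was not tested.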

How the data were processed

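RNA-seq was analysed from 15 libraries of lineage-negative bone marrow cells. The authors deposited raw read counts per gene. The submitters' processing notes name Trimmomatic 0.38, a read trimmer, STAR 2.5.2b, an aligner, and the GRCm38 build. The annotation release and the strand setting of the counting are not given in the sources used here. Symbols and exon lengths came from GENCODE vM21, with a symbol for 45143 of 45706 identifiers.

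Counts were tested with edgeR 4.0.16 in R 4.3.3 (quasi-likelihood test, TMM factors, low counts removed with filterByExpr, 1 fit of all genotypes), with Benjamini-Hochberg adjustment over 18983 genes and a threshold of 0.05. Replicate 2 labelled G3 mTerc-/-Puma-/- was left out of this fit. Normalized CPM used TMM factors of 15 libraries, and log2 CPM a prior count of 2. Alternatives were all 15 libraries, DESeq2 1.42.0, limma-voom (limma 3.58.1), library size alone, other count filters, fits of only the genotypes compared, a replicate block and each replicate left out. The test was checked on simulated data. Totals per library were 102790519 to 158367059. Single values were compared with exact two-sided permutation tests. All 10 genes were described. Of other lists, genes called in a comparison were named, up to 4 a list by size of change, and otherwise the 2 most abundant, except 2 genes that are not reported here. Gp9 was added since 5 genes of its list were called, and Itga2b after its values were seen. Y-linked genes are named for the check of the labels. The genes and lists were chosen with earlier results of these data known.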

Additional observations from a re-analysis of the deposited data

Results flagged for a closer look

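Each of the 10 genes was examined in the 3 genotypes with 4 libraries, 30 groups in all, for a library whose gap to the nearest other exceeds Dixon's 95% critical value. In Puma-/-, replicate 1 stood out for Mmp9, at 8.29 normalized CPM where the other libraries had 0.552 to 1.71, a gap of 0.85 of the range. The same library stood out for Retnlg, at 6.08 normalized CPM beside 0.320 to 1.27, a gap of 0.835. The rate of 1 in 20 holds for independent groups of normally distributed values, and here untransformed CPM of genes that moved together was used. Both marks came from 1 library, in Mmp9 and Retnlg, whose levels went together (r = 0.957 with genotype means removed, over 14 libraries). The 2 of 30 therefore cannot be weighed against chance. Both genes also had their high value in G3 mTerc-/-Puma+/+ in replicate 4.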

How the results depend on the processing

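By edgeR and limma-voom, 0 of 10 genes were called in each comparison under every setting tried. DESeq2 called 1 gene against Puma-/- (Mmp8, log2 fold change 1.23) beside 1.51% of all genes, and with all 15 libraries, a combination added after seeing the data, 1 gene against WT (S100a9, 1.62) beside 1.15% and 5 in the test of any difference beside 3.79%. The cause was not tested. Over 26 alternatives, the direction of a gene changed in 0 of 260 values against Puma-/- and against G3 mTerc-/-Puma+/+ and in 1 of 260 against WT for the double-mutant label, where the median ran from 1.24 to 2.13. It changed in 11 of 260 values for Puma-/- against WT, 6 of 260 for G3 mTerc-/-Puma+/+ against WT, 32 of 260 for G3 mTerc-/-Puma+/+ against Puma-/- and 9 of 250 for the interaction. The log2 fold change of Mmp9, Puma-/- against WT, was -0.0407 by limma-voom with 14 libraries and -0.0417 by limma-voom with 15, and the log2 fold change of Camp, G3 mTerc-/-Puma+/+ against Puma-/-, was 0.0398 and 0.0397 in the same fits.

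Leaving out each of the 14 libraries in turn moved Mmp9 in Puma-/- against WT between -0.65 (without Puma-/- replicate 1) and 0.98, Cd177 in G3 mTerc-/-Puma+/+ against WT between -0.71 and 0.0111 (without WT replicate 3), Cd177 under the double-mutant label against WT between -0.0644 (without WT replicate 2) and 0.66, and the interaction of S100a8 between -0.26 (without Puma-/- replicate 2) and 0.34. The replicate numbers gave no clear pairing of the libraries. Between genotypes, the correlation of same-numbered deviations ran from -0.25 to 0.18, with a median of 0.02, and exceeded 0.1 in 3 of 18 pairs. For differently numbered libraries it ran from -0.25 to 0.25, with a median of -0.02, and exceeded 0.1 in 13 of 55 pairs. With a replicate block, the median against WT of the double-mutant label was 1.39 with 0 genes called, Camp in G3 mTerc-/-Puma+/+ against Puma-/- was 0.0654 and the interaction of S100a8 was -0.0017. Depth limits Retnlg most, with 36 counts in Puma-/- replicate 2.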
